A study of Mus musculus with 21 samples.

Results

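Levels are described here for 10 genes of extracellular matrix breakdown and its control in mouse skin keratinocytes: the matrix metalloproteinase genes Mmp3, Mmp9, Mmp10, Mmp13 and Mmp14, the tissue inhibitor genes Timp1, Timp2 and Timp3, the secreted aggrecanase-type protease gene Adamts1 and its protease-like relative Adamtsl5. They were found by their symbols in each of 3 deposited expression tables, where 43776 gene symbols were listed in each table. All 10 genes were present in every table. The genes were picked with their levels in these populations known, so their levels and calls are a description, and the choice carries no test.

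Matrix metalloproteinases are zinc enzymes made as inactive proforms. Most are secreted and cut collagens, laminins, proteoglycans and other proteases, while a few, such as the Mmp14 product, stay anchored in the cell membrane. Timp proteins bind the active site of these enzymes and block it, and in skin the balance is best known from wound healing, where keratinocytes that leave the basement membrane make collagenase and stromelysins. Adamts enzymes are secreted relatives with thrombospondin repeats that bind the matrix, and Adamtsl proteins share the repeats but lack the protease domain.

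RNA was sequenced from mouse epidermal keratinocytes in 21 libraries, 3 for each of 7 groups. In one experiment, from wild type animals, the groups were hair follicle stem cells (HFSCs) purified by flow cytometry, cultured HFSCs and total epidermal cells. In the other, whose labels state no genotype, total epidermal cells were kept for 10 to 14 days in HFSC cultures, called 3C, and were either parted into CD34+ and CD34neg fractions of alpha-6 integrin positive cells or exposed to dorsomorphin or cyclopamine in the medium for 48 h. The study asked what the CD34+ and CD34neg cells of the cultures are, and which early transcript changes accompany loss of HFSCs under dorsomorphin or their enrichment under cyclopamine. CD34 and alpha-6 integrin are surface proteins used to sort stem cells of the follicle bulge, dorsomorphin blocks BMP type I receptors and AMP-activated kinase, and cyclopamine blocks Smoothened of the Hedgehog pathway. An untreated culture was not part of the inhibitor comparison, so each inhibitor is set against the other.

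The first table names its populations HFSC, CD34a6 and bulk, and bulk was read as total epidermal cells. The labels do not tell which of the names HFSC and CD34a6 stands for freshly purified and which for cultured cells, so both names are used as the table has them. The transcript of the sort marker Cd34 was at 8.70 FPKM in HFSC, 327 FPKM in CD34a6 and 10.6 FPKM in bulk, and at 38.7 FPKM in the CD34+ fraction, against 2.26 FPKM in the CD34neg fraction. The 4 bulge markers Cd34, Krt15, Lhx2 and Lgr5 summed to 48.95 FPKM in HFSC, 10590.5 FPKM in CD34a6 and 4812 FPKM in bulk. Most of each sum was Krt15, at 37.9, 9923 and 4791 FPKM in the same order. Lhx2 was at 2.06, 270 and 7.91 FPKM and Lgr5 at 0.299, 70.5 and 1.88 FPKM, so bulk was far below CD34a6 in these, as in Cd34. HFSC was thus the lowest of the 3 in these markers, and its name is used only as that of a column. The basal keratinocyte genes Krt5, Krt14, Itga6 and Itgb4 were above 1 FPKM in all 7 populations. FPKM counts fragments per length of transcript and per sequenced library, so levels of different genes can be compared. Each FPKM is a single value that the authors gave for a population, with no value per library, so no spread can be set beside it, and neighbours in any order of levels given below could not be tested for a difference. Sequencing depth is unknown. The summed FPKM over all loci ran from 406723 in CD34a6 to 917078 in bulk, and from 495393 to 679559 in the 4 culture populations. Normalisation was done table by table, and no level is set across tables. Calls of a higher or lower level are those of the authors' deposited table at an adjusted p under 0.05. Nothing in the labels ties the 3 libraries of a group to separate animals or cultures, and those p-values may therefore rest on technical spread. In cell populations of mixed type, fewer cells that make a transcript and less of it per cell cannot be told apart.

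The secreted collagenase and stromelysin genes Mmp13, Mmp3 and Mmp10 were highest in HFSC among the first 3 populations. Mmp13 encodes collagenase-3, which cuts fibrillar collagen, and lies on the plus strand of chromosome 9 (GRCm38, 7272514 to 7283333). It was at 50.3 FPKM in HFSC, was listed at 0 in CD34a6 and was at 0.0760 FPKM in bulk. Mmp3 encodes stromelysin-1, which cuts proteoglycans, laminin and the proforms of other metalloproteinases (chromosome 9, 7445822 to 7455972, plus strand). It was at 7.80 FPKM in HFSC, 0.0396 FPKM in CD34a6 and 1.43 FPKM in bulk. Mmp10 encodes the close relative stromelysin-2 (chromosome 9, 7502352 to 7510238, plus strand), and was at 3.31 FPKM in HFSC, listed at 0 in CD34a6 and at 0.0135 FPKM in bulk. HFSC was the highest of the 3 populations and CD34a6 the lowest for each of these genes. For HFSC against bulk the authors' deposited table has adjusted p of 0.00278 for Mmp13, 0.000212 for Mmp3 and 0.280 for Mmp10. Mmp10 was thus not called against bulk although its values were 3.31 and 0.0135 FPKM. For HFSC against CD34a6 all were called higher, and the authors' deposited table has 0.000212 for Mmp13 and Mmp10 and 0.0326 for Mmp3. For CD34a6 against bulk Mmp3 was called lower (the authors' deposited table, adjusted p 0.0326), and the other members of this trio were not tested by the authors.

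The gelatinase gene Mmp9 and the membrane-bound protease gene Mmp14 were distributed differently. Mmp9 (chromosome 2, 164940780 to 164955850, plus strand) encodes gelatinase B, which cuts denatured collagen and type IV collagen and is made by keratinocytes and by several leukocyte types. It was at 4.97 FPKM in HFSC, 0.141 FPKM in CD34a6 and 4.63 FPKM in bulk. HFSC and bulk lay close together and CD34a6 lay below both, and the authors' deposited table has adjusted p of 0.750 for HFSC against bulk and 0.000212 for CD34a6 against bulk. That closeness holds for FPKM as deposited, since the log2 difference of Mmp9 for HFSC against bulk was 0.09, and 0.90 once each population was rescaled to the same sum (TPM). Mmp14 encodes a collagenase of the cell surface that activates the proform of gelatinase A (chromosome 14, 54431612 to 54441265, plus strand). It was at 70.3 FPKM in HFSC, 106 FPKM in CD34a6 and 37.7 FPKM in bulk. Mmp14 thus stood in another order than the secreted Mmp genes of the set, being highest in CD34a6. There it was at 2.81 times the bulk level (log2 difference 1.47 as deposited and 2.64 with equal sums). It was called higher for CD34a6 against bulk at 0.000212 and for HFSC against bulk at 0.00671, and lower for HFSC against CD34a6 at 0.00126 (the authors' deposited table, adjusted p).

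The inhibitor genes Timp2 and Timp3 were high in different populations, and Timp1 was the lowest of the inhibitor genes in all 3. Timp2 (chromosome 11, 118301069 to 118355740, minus strand) encodes the inhibitor that also bridges the Mmp14 product to progelatinase A at the cell surface. It was at 42.4 FPKM in HFSC, 134 FPKM in CD34a6 and 13.0 FPKM in bulk, which is 10.3 times the bulk level in CD34a6 and 3.26 times in HFSC. With equal sums these Timp2 differences were larger, at 4.44 in place of 3.26 on the log2 scale for CD34a6 and 2.55 in place of 1.63 for HFSC. Timp3 encodes the inhibitor that stays bound to the matrix and also blocks Adam and Adamts enzymes. It was at 125 FPKM in HFSC, 15.4 FPKM in CD34a6 and 11.7 FPKM in bulk. For Timp3 HFSC therefore stood at 10.7 times the bulk level and 8.11 times the CD34a6 level, while CD34a6 against bulk was not called (the authors' deposited table, adjusted p 0.211). The log2 difference of Timp3 between CD34a6 and bulk was 0.37 as deposited, and with equal sums Timp3 was at 37.8 TPM in CD34a6, against 12.7 TPM in bulk. Timp1, which encodes a soluble inhibitor with high affinity for the Mmp9 product, was at 1.78 FPKM in HFSC, 0.235 FPKM in CD34a6 and 0.206 FPKM in bulk. Timp1 was called in none of these comparisons. The authors' deposited table has 0.146 for HFSC against bulk and 0.131 for HFSC against CD34a6 as adjusted p, and CD34a6 against bulk was not tested.

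The Adamts pair also parted. Adamtsl5 (chromosome 10, 80339110 to 80348412, minus strand) encodes a matrix protein without a protease domain that binds fibrillins. It was at 25.6 FPKM in HFSC, 68.5 FPKM in CD34a6 and 21.3 FPKM in bulk. CD34a6 stood apart at 3.21 times the bulk level, while HFSC against bulk was not called (the authors' deposited table, adjusted p 0.00818 and 0.560). With equal sums the log2 difference of Adamtsl5 was 2.81 in place of 1.64 for CD34a6 against bulk and 1.16 in place of 0.26 for HFSC against bulk. Adamts1 (chromosome 16, 85793827 to 85803113, minus strand) encodes a protease that cuts aggrecan and versican. It was at 9.77 FPKM in HFSC, 2.67 FPKM in CD34a6 and 4.84 FPKM in bulk. HFSC was highest and CD34a6 lowest for Adamts1, called at 0.0126 for HFSC against bulk and at 0.0330 for CD34a6 against bulk (the authors' deposited table, adjusted p). The lower level of Adamts1 in CD34a6 than in bulk holds for FPKM as deposited, with a log2 difference of -0.67, and turns to 0.27 once each population is rescaled to the same sum. At an adjusted p under 0.01 it and Mmp3 were not called.

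**Figure D1:**
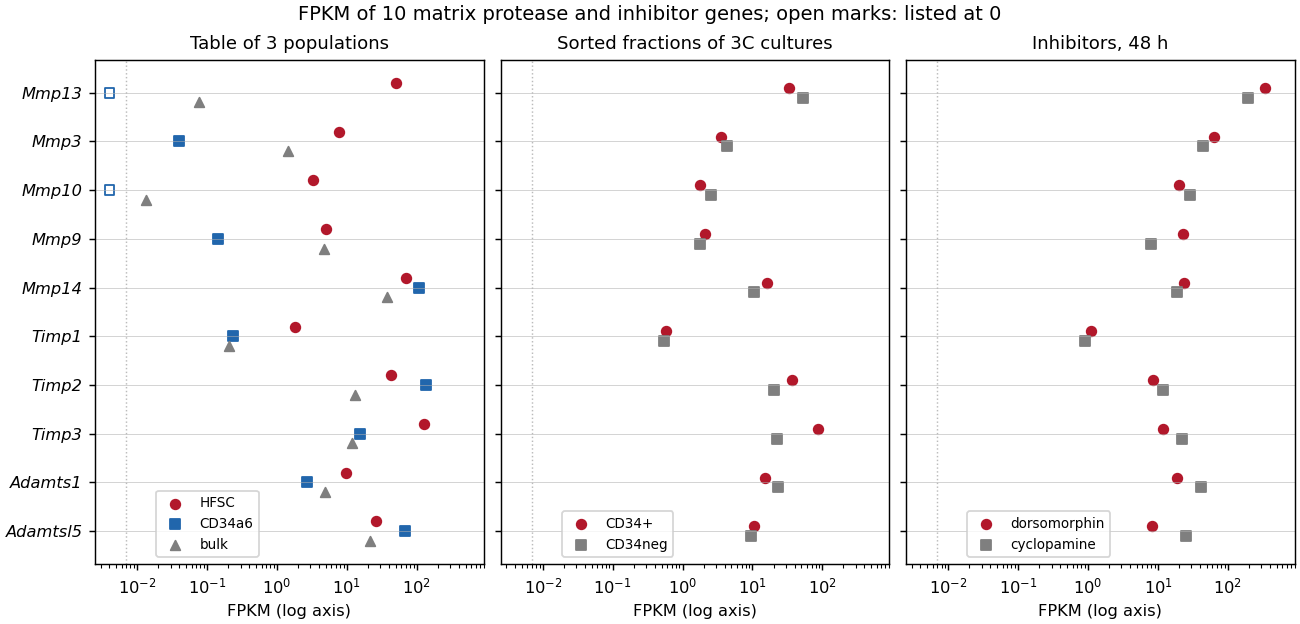
FPKM (log axis) of the 10 genes in the 3 tables, with 1 mark for each population and open marks left of the dotted line for values listed at 0. Mmp13 is at 50.3 in HFSC, 0 in CD34a6 and 0.0760 in bulk, while Mmp14, Timp2 and Adamtsl5 are highest in CD34a6.

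By the authors' calls, CD34a6 against bulk had 7 of the 10 genes tested, with 3 higher (Mmp14, Timp2, Adamtsl5), 3 lower (Mmp3, Mmp9, Adamts1) and Timp3 not called. Over all 14441 tested loci of that comparison 46.3% were called, 22.0% higher and 24.3% lower. At an adjusted p under 0.01, 1 gene of the set (Mmp9) was lower there, where 18.7% of loci were. HFSC against bulk had all 10 tested, with 6 higher (Mmp3, Mmp13, Mmp14, Timp2, Timp3, Adamts1) and 0 lower, where 43.7% of 14035 loci were called, 19.0% higher and 24.7% lower. HFSC against CD34a6 had all 10 tested, with 6 higher (Mmp3, Mmp9, Mmp10, Mmp13, Timp3, Adamts1) and 3 lower (Mmp14, Timp2, Adamtsl5), where 54.2% of 13962 loci were called, 25.2% higher and 29.0% lower. These pairs share populations, and the genes were chosen from them, so nothing is read from the counts against the background. The median log2 difference of the tested genes, on the scale of FPKM + 1, was 0.37 for CD34a6 against bulk, 1.42 for HFSC against bulk and 1.83 for HFSC against CD34a6. Over all tested loci the medians were 0.00, -0.11 and -0.07 in the same order. Rescaling each population to the same sum moved the median over all loci by 1.00 for CD34a6 against bulk, 0.77 for HFSC against bulk, -0.23 for HFSC against CD34a6, 0.38 for CD34+ against CD34neg and 0.11 for dorsomorphin against cyclopamine. With it the called loci of CD34a6 against bulk were 3955 higher and 2734 lower, in place of 3173 higher and 3516 lower.

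In the sorted fractions of the cultures Timp3 was the gene of the set that was called. It was at 85.6 FPKM in the CD34+ fraction, against 22.8 FPKM in the CD34neg fraction, a 3.76-fold difference (the authors' deposited table, adjusted p 0.00275). Syn3, a gene on the opposite strand of the same locus, was called higher too. The authors tested 9 of the 10 genes, with 1 higher, 0 lower and 8 not called, where 6.79% of 11370 loci were called, 2.08% higher and 4.71% lower. Mmp13 was at 33.8 FPKM in the CD34+ fraction, against 52.7 FPKM in the CD34neg fraction. Mmp3 was at 3.50 FPKM in CD34+ cells, against 4.35 FPKM in CD34neg cells. Mmp10 was at 1.80 FPKM in CD34+ cells, against 2.54 FPKM in CD34neg cells. The trio of secreted proteases was lower in FPKM in the CD34+ fraction, with log2 differences of -0.63, -0.25 and -0.34 that were not called (the authors' deposited table, adjusted p 0.104, 0.566 and 0.466). For Mmp3 that direction turned when each fraction was rescaled to the same sum, to a log2 difference of 0.09, while Mmp13 and Mmp10 remained lower in CD34+ cells at -0.23 and -0.07.

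Timp2, like the genes that follow, differed by less than Timp3 between the fractions. It was at 36.6 FPKM in CD34+ cells, against 20.5 FPKM in CD34neg cells, and was not called (the authors' deposited table, adjusted p 0.212). Mmp14 was at 16.1 FPKM in CD34+ cells, against 10.7 FPKM in CD34neg cells (the authors' deposited table, adjusted p 0.171). Adamts1 was at 14.9 FPKM in CD34+ cells, against 23.1 FPKM in CD34neg cells (the authors' deposited table, adjusted p 0.114). Both fractions carried 9 of the 10 genes above 1 FPKM, Timp1 being the exception. Mmp9 was at 2.07 FPKM in CD34+ cells, against 1.78 FPKM in CD34neg cells. Adamtsl5 was at 10.5 FPKM in CD34+ cells, against 9.57 FPKM in CD34neg cells. Timp1 was at 0.589 FPKM in CD34+ cells, against 0.544 FPKM in CD34neg cells, and was not tested. The median log2 difference over the tested genes of the set was 0.12, and -0.07 over all tested loci.

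Under the inhibitors Mmp13 was among the most abundant transcripts, and genes of the set were called in both directions. Mmp13 was at 344 FPKM with dorsomorphin, rank 195 of 43943 loci, against 195 FPKM with cyclopamine, rank 356. This 1.77-fold difference was called (the authors' deposited table, adjusted p 0.00479). Mmp3 was at 62.7 FPKM with dorsomorphin, against 44.6 FPKM with cyclopamine, and was called higher (the authors' deposited table, adjusted p 0.0320). Mmp10, although a neighbour and relative of Mmp3, was called lower, at 20.1 FPKM with dorsomorphin, against 28.8 FPKM with cyclopamine (the authors' deposited table, adjusted p 0.0388). The calls of Mmp3 and Mmp10 lay close to the threshold, and neither passed at an adjusted p under 0.01. Mmp9 was at 22.9 FPKM with dorsomorphin, against 8.04 FPKM with cyclopamine, a 2.85-fold difference that was not called (the authors' deposited table, adjusted p 0.0797). That fold was larger than the called folds of Mmp13 and Mmp3. Mmp14 was at 23.8 FPKM with dorsomorphin, against 18.9 FPKM with cyclopamine, and was not called.

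Timp3 and both Adamts genes ran the other way. Timp3 was at 12.0 FPKM with dorsomorphin, against 22.3 FPKM with cyclopamine. Adamtsl5 was at 8.18 FPKM with dorsomorphin, against 25.4 FPKM with cyclopamine. Adamts1 was at 18.8 FPKM with dorsomorphin, against 41.3 FPKM with cyclopamine. Each of these genes was called lower with dorsomorphin, with log2 differences of -0.85 for Timp3, -1.53 for Adamtsl5 and -1.10 for Adamts1 (the authors' deposited table, adjusted p 0.00479 for each). Timp2 was at 8.50 FPKM with dorsomorphin, against 11.9 FPKM with cyclopamine (the authors' deposited table, adjusted p 0.198). Timp1 was at 1.09 FPKM with dorsomorphin, against 0.898 FPKM with cyclopamine, and was not tested. In all, 9 of the 10 genes were tested, 2 were higher, 4 lower and 3 not called, where 2.57% of 11505 loci were called, 1.26% higher and 1.31% lower. At an adjusted p under 0.01 the higher ones were 1 gene (Mmp13) and 0.591% of loci. The median log2 difference was -0.44 over the tested genes of the set and -0.02 over all tested loci.

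**Figure D2:**
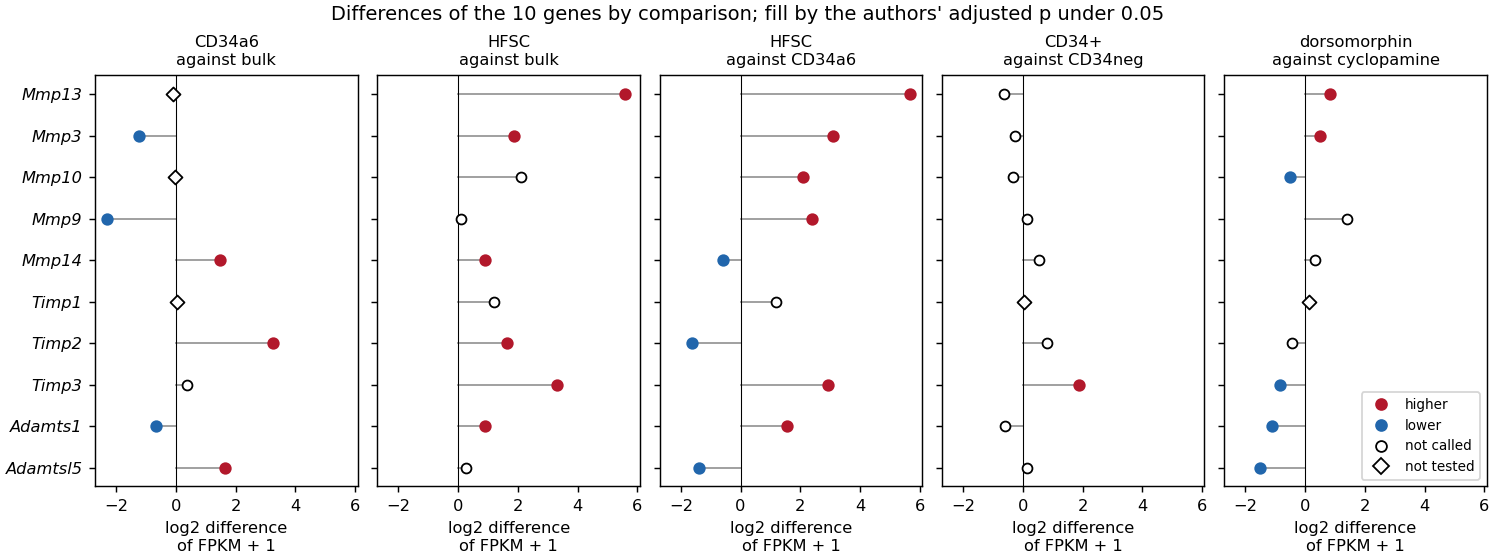
Log2 differences of FPKM + 1 for the 10 genes in 5 comparisons, the first-named population minus the second, filled where the authors called the gene. Timp3 is the filled mark for CD34+ against CD34neg, and 2 genes are higher and 4 lower for dorsomorphin against cyclopamine.

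Summed by family, transcripts of proteases and inhibitors of the set stood in different proportions. The 5 Mmp genes summed to 137 FPKM in HFSC, 106 FPKM in CD34a6 and 43.8 FPKM in bulk, and the 3 Timp genes to 169, 149 and 24.9 FPKM in the same order. The ratio of the Mmp sum to the Timp sum was 0.809 in HFSC, 0.711 in CD34a6 and 1.76 in bulk. Mmp14 made up 99.8% of the Mmp sum in CD34a6 and 86.0% in bulk, but 51.4% in HFSC, where Mmp13, Mmp3 and Mmp10 together gave 44.9%. Timp2 led the inhibitors with 89.5% in CD34a6 and 52.3% in bulk, and Timp3 led with 73.9% in HFSC. Mmp14 thus led the Mmp sum in all 3 populations, while the leading inhibitor gene differed between HFSC and CD34a6.

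In the cultures the leading protease was Mmp13 in all 4 populations and the leading inhibitor Timp3. In the CD34+ fraction the Mmp sum was 57.3 FPKM and the Timp sum 123 FPKM, a ratio of 0.467. In the CD34neg fraction the sums were 72.1 and 43.8 FPKM, a ratio of 1.64. With dorsomorphin the Mmp sum was 474 FPKM and the Timp sum 21.6 FPKM, a ratio of 22.0, against 295 and 35.1 FPKM, a ratio of 8.40, with cyclopamine. These ratios are of single values and carry no test, and a ratio of transcripts is not one of protein or activity. The sums hold only the genes of the set, and other Mmp genes are left out. Timp3 gave 69.7% of the Timp sum in the CD34+ fraction and 51.9% in the CD34neg fraction. The part of Syn3, on the opposite strand of the Timp3 locus, in these sums was not tested.

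**Figure D3:**
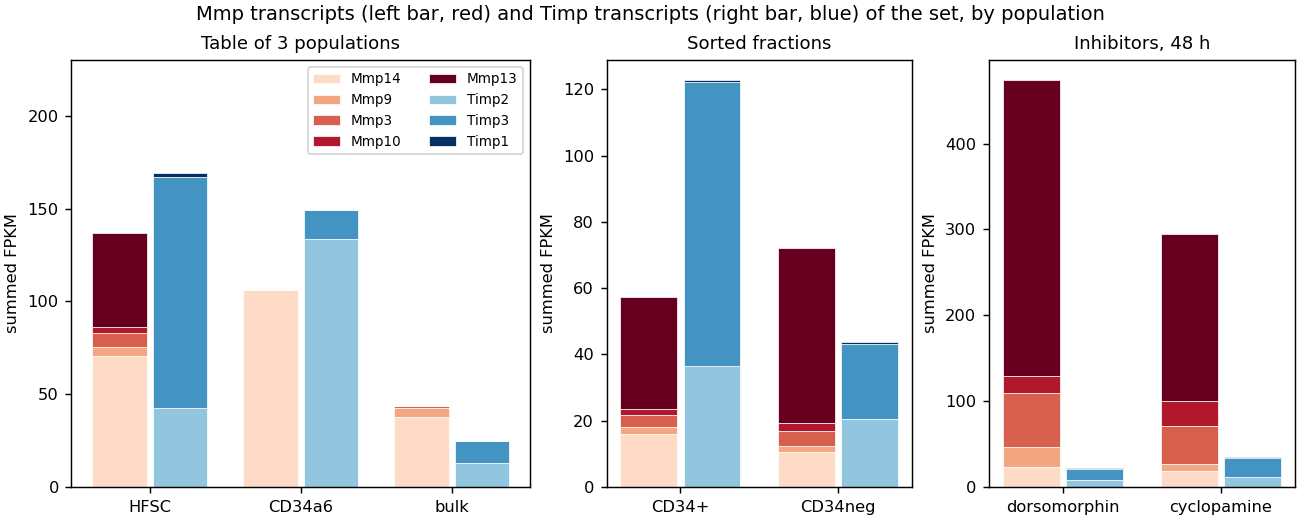
Summed FPKM of the 5 Mmp genes (left bar, red shades) and the 3 Timp genes (right bar, blue shades) of the set in each population, with a separate axis for each table. The Mmp bar is the taller one in bulk, in CD34neg cells and with both inhibitors, with Mmp13 as its largest share in all 4 culture populations.

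Mmp13, Mmp3 and Mmp10 lie in a cluster of 10 Mmp genes that spans 427072 bases of chromosome 9 (7272514 to 7699585), in the order Mmp13, Mmp12, Mmp1b, Mmp3, Mmp1a, Mmp10, Mmp8, Mmp27, Mmp20 and Mmp7. The cluster arose by gene duplication. In CD34a6, 9 of the 10 were listed at 0, Mmp3 being the exception at 0.0396 FPKM. Above 1 FPKM were 4 of the 10 in HFSC, 0 in CD34a6 and 1 in bulk, and 4 in CD34+ cells and 5 in each of CD34neg cells, dorsomorphin and cyclopamine cultures. The member besides the set that passed 1 FPKM in HFSC was Mmp1b, a relative of interstitial collagenase. It was at 2.72 FPKM in HFSC, listed at 0 in CD34a6 and at 0.0119 FPKM in bulk. HFSC was called higher for Mmp1b against CD34a6 but not against bulk (the authors' deposited table, adjusted p 0.000212 and 0.254). Mmp1b was at 24.1 FPKM with dorsomorphin, against 22.3 FPKM with cyclopamine, and was not called (the authors' deposited table, adjusted p 0.905). Mmp12, the macrophage elastase gene, was at 3.44 FPKM with dorsomorphin, against 8.70 FPKM with cyclopamine, and was not called. Mmp20, the enamel protease gene, and Mmp7, the matrilysin gene, were listed at 0 in all 7 populations. Mmp12 and Mmp1b overlap at their ends on opposite strands, and Mmp1a and Mmp1b are near copies, so reads may be split among them.

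**Figure D4:**
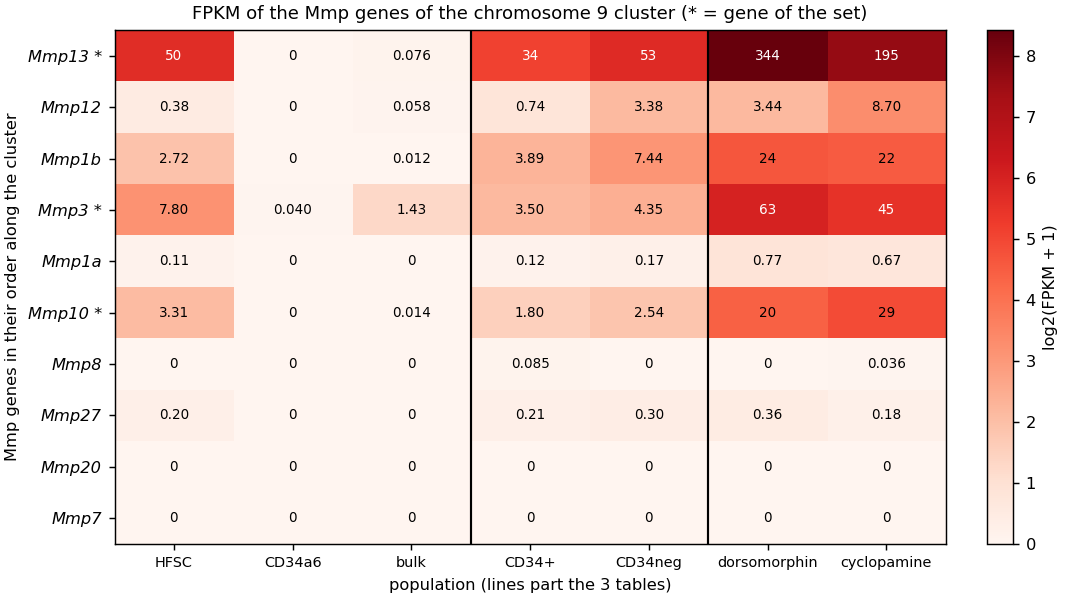
FPKM of the 10 Mmp genes of the chromosome 9 cluster in gene order (rows) and in the 7 populations (columns), shaded by log2(FPKM + 1), with lines between the 3 tables. The CD34a6 column holds 0 for 9 of the 10 genes, and Mmp13 is the darkest row of the cultures.

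The sequence before the start of these clustered genes was read from RefSeq (GRCm38.p6), which had an entry for 9 of the 10 genes, not for Mmp9. Each is the 250 bases before the RefSeq start, and position -1 is the base next to it. The 3 clustered protease genes are shown because they were high and low together in the first table, and Adamts1 because it too has a TATAAA match but no AP-1 match. Capitals mark matches to TGANTCA on either strand, the letters bound by AP-1 (Fos and Jun dimers), and to TATAAA on the strand of the gene.
Mmp13 (chr9:7272264-7272513, plus strand): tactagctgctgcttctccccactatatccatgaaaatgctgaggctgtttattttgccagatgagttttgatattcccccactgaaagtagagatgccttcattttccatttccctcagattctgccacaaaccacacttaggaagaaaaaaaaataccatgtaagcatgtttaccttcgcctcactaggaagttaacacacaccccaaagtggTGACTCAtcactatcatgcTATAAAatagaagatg
Mmp3 (chr9:7445572-7445821, plus strand): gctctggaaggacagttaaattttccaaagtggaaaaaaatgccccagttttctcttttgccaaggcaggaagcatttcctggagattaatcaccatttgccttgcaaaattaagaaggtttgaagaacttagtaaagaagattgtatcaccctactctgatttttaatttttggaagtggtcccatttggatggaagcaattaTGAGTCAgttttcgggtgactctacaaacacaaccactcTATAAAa
Mmp10 (chr9:7502092-7502341, plus strand): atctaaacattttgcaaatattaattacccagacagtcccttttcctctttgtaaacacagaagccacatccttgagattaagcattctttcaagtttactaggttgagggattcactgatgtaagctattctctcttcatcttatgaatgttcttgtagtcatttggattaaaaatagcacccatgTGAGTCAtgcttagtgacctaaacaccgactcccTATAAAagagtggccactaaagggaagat
Adamts1 (chr16:85803114-85803363, minus strand): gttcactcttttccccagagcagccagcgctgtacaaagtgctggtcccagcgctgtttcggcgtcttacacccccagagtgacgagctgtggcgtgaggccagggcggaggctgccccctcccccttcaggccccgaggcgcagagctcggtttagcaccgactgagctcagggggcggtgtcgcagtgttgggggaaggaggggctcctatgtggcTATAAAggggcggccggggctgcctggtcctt

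The AP-1 letters were at positions -35 to -29 in Mmp13, -46 to -40 in Mmp3 and -63 to -57 in Mmp10. They were present in 3 of the 9 genes of the set with an entry, and in 6.87% of all 27025 promoters of the same length. These 3 genes lie in the same cluster, which arose by duplication, so their matches are not independent and nothing is read from their number against that share. TATAAA followed the AP-1 match in each of those 3 genes, at -16 to -11, -7 to -2 and -29 to -24, and stood at -32 to -27 in Adamts1. It was present in 4 of the 9 genes and in 8.12% of all promoters. GGGCGG, the GC box, was searched on both strands and was present in 6 of the 9 genes (Mmp14, Timp1, Timp2, Timp3, Adamtsl5 and Adamts1) and in 32.7% of promoters. AGGAAG, an Ets core, was in 5 of the 9 (Mmp3, Mmp13, Mmp14, Timp1 and Timp3) and in 29.2% of promoters, and TGTGGT, a Runx core, in Mmp13 and Mmp14 and in 14.2%, both searched on either strand. No match overlapped a match to another of these motifs. A match of letters is not a measured binding site, and no binding was measured here.

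Other genes of the matrix protease system were followed in 6 lists with 74 genes, of which 73 were in the tables. For CD34a6 against bulk 37 of them were tested, with 17 higher and 9 lower. For HFSC against bulk 36 were tested, with 10 higher and 9 lower, and for HFSC against CD34a6 42 were tested, with 19 higher and 19 lower. For CD34+ against CD34neg 21 were tested, with 1 higher and 1 lower, and for dorsomorphin against cyclopamine 22, with 4 higher and 0 lower. Over all tested loci of these comparisons, in the same order, 22.0%, 19.0%, 25.2%, 2.08% and 1.26% were higher. The shares of lower loci were 24.3%, 24.7%, 29.0%, 4.71% and 1.31%. At an adjusted p under 0.01, 0 of these genes were higher and 0 lower for CD34+ against CD34neg, where 0.721% of loci were higher and 1.89% lower.

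The tested relatives of Adamtsl5 and Adamts1 were mostly called higher in CD34a6 than in bulk, as Adamtsl5 was. Of 22 other Adamts and Adamtsl genes 9 were tested for CD34a6 against bulk, with 7 higher, 1 lower and a median log2 difference of 2.16. Over all tested loci of that comparison 22.0% were higher and 24.3% lower. Adamtsl4, which like Adamtsl5 binds fibrillin microfibrils, was at 74.6 FPKM in CD34a6, against 3.43 FPKM in bulk. Adamts19 was at 14.3 FPKM in CD34a6, against 0.373 FPKM in bulk, and Adamts17 was at 13.2 FPKM in CD34a6, against 1.25 FPKM in bulk. For HFSC against CD34a6, where 25.2% of all tested loci were higher and 29.0% lower, 12 of the 22 were tested. Of them 3 were higher and 7 lower, with a median of -1.19. The higher ones were led by Adamts15, which encodes a versican-cutting protease, at 12.6 FPKM in HFSC, against 0.137 FPKM in CD34a6. Adamts1 was thus on the side of Adamts15 and not on that of most of the tested family.

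Among 18 other Mmp genes few were tested, 6 for CD34a6 against bulk and 7 for HFSC against CD34a6. Mmp11, which encodes stromelysin-3, was called higher in CD34a6, at 9.45 FPKM, against 0.329 FPKM in bulk. Mmp28, the epilysin gene of keratinocytes, was called lower, at 1.11 FPKM in CD34a6, against 10.7 FPKM in bulk. In HFSC against CD34a6 2 were higher and 5 were lower, where 25.2% of all tested loci were higher and 29.0% lower. Mmp1b was among the higher ones, and the lower ones included Mmp11, at 1.03 FPKM in HFSC, against 9.45 FPKM in CD34a6. For HFSC against bulk 6 were tested, with 1 higher and 3 lower, where 19.0% of all tested loci were higher and 24.7% lower. Mmp2 was at 2.16 FPKM in HFSC, against 4.76 FPKM in CD34a6 and 6.22 FPKM in bulk, and was called lower in HFSC against both.

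Several genes of plasminogen activation were called higher in HFSC, as Mmp13 and Mmp3 were. Plasmin activates several proforms, and Plau, the urokinase gene, was at 54.3 FPKM in HFSC, against 4.43 FPKM in CD34a6. Of 5 tested genes of plasminogen activation, 4 were higher in HFSC than in CD34a6 and 1 was lower. Over all tested loci of that comparison 25.2% were higher and 29.0% lower, which also applies to the lists that follow. The lower gene was Plat, the tissue activator gene, at 0.477 FPKM in HFSC, against 5.38 FPKM in CD34a6. Of 8 tested activating proteases HFSC was above CD34a6 in 5 calls and below it in 3. Against bulk it was above in 1 call and below in 2, where 19.0% of all tested loci were higher and 24.7% lower. Furin, the protease that cuts the proform of Mmp14 inside the cell, was at 53.8 FPKM in HFSC, against 20.5 FPKM in bulk, and was called higher. Pcsk6, of the same list, went the other way, at 2.59 FPKM in HFSC, against 38.2 FPKM in bulk and 62.9 FPKM in CD34a6. HFSC was called lower for Pcsk6 against both. Tmprss4, a serine protease of the cell surface, was called lower against bulk, at 28.7 FPKM in HFSC, against 385 FPKM in bulk. Against CD34a6, where Tmprss4 was at 15.4 FPKM, HFSC was called higher. Of 7 tested Adam genes 4 were higher and 1 was lower in HFSC than in CD34a6. Adam8, a membrane-anchored relative, was at 54.0 FPKM in HFSC, against 1.31 FPKM in CD34a6, and Adam12 was at 16.6 FPKM in HFSC and listed at 0 in CD34a6. Of 3 tested genes of other inhibitors and regulators 1 was higher and 2 were lower in HFSC than in CD34a6. Reck, which encodes a membrane-anchored inhibitor of several Mmp products, was called lower, at 0.213 FPKM in HFSC, against 1.85 FPKM in CD34a6.

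In the cultures Adam12 was called higher in both comparisons. It was at 12.2 FPKM in CD34+ cells, against 5.97 FPKM in CD34neg cells, and at 27.2 FPKM with dorsomorphin, against 11.7 FPKM with cyclopamine. Adam8 was called higher with dorsomorphin, at 61.7 FPKM, against 44.6 FPKM with cyclopamine. Serpine2, a protease nexin gene, was called higher too, at 18.0 FPKM with dorsomorphin, against 8.55 FPKM with cyclopamine. The gene called lower in CD34+ cells was Tmprss4, at 1.69 FPKM, against 4.22 FPKM in CD34neg cells.

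**Figure D5:**
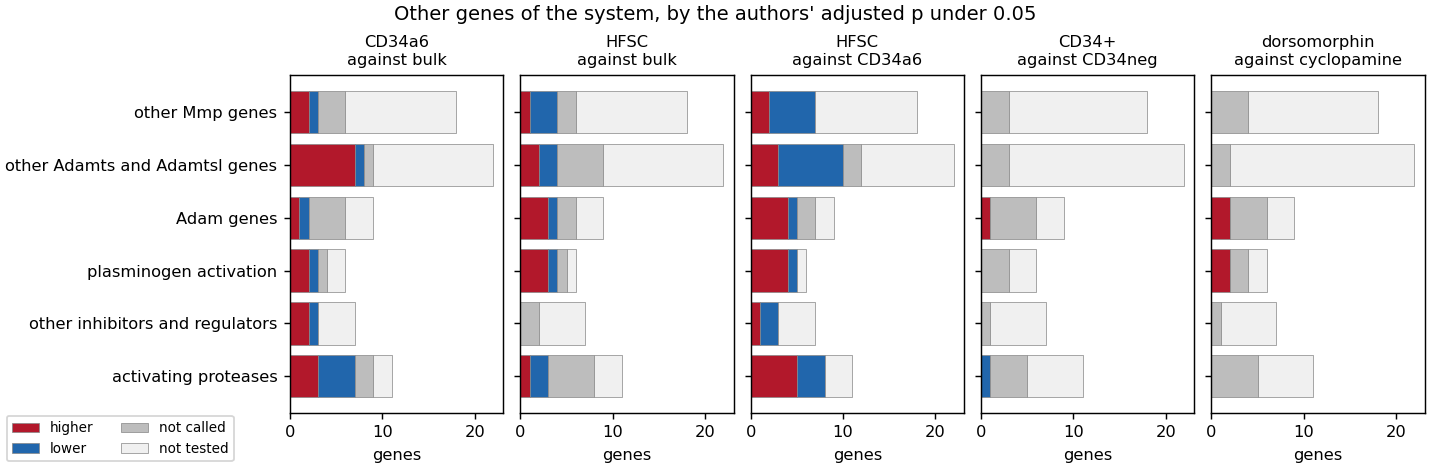
Number of genes called higher, called lower, not called and not tested in the 6 lists of other matrix protease system genes, for 5 comparisons. The other Adamts and Adamtsl genes have 7 higher and 1 lower for CD34a6 against bulk, where 22.0% and 24.3% of all tested loci were. The list counts for CD34+ against CD34neg hold 1 higher and 1 lower gene in all, where 2.08% and 4.71% of loci were.

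Some inhibitor loci of the tables covered other genes. The Timp3 locus (chromosome 10, 86055125 to 86498896) was 443772 bases long and equalled the span of Syn3, a synapsin gene on the opposite strand that holds Timp3 (86300372 to 86349506, plus strand) within it. Syn3 was at 24.6 FPKM in CD34+ cells, against 5.60 FPKM in CD34neg cells, and was called higher with Timp3 (the authors' deposited table, adjusted p 0.00957). Syn3 stood at 28.7% of the Timp3 level in CD34+ cells and 24.6% in CD34neg cells, at 28.2% with dorsomorphin and 28.8% with cyclopamine. In the first table it stood at 0.327% in HFSC, 2.08% in CD34a6 and 1.81% in bulk. The library kit keeps strand, but whether strand was used in assigning reads is not given in the sources used here, so reads of these genes could not be told apart, and the part of Syn3 in the Timp3 difference was not tested. Without the loci that cover another coding gene, 0 genes of the set were higher in CD34+ cells, in place of 1.

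The Timp1 locus (chromosome X, 20797814 to 20921004) covered Araf and Syn1 besides Timp1. Araf, a kinase gene, was at 25.7 FPKM in HFSC, 47.8 FPKM in CD34a6 and 55.4 FPKM in bulk, far above the 1.78, 0.235 and 0.206 FPKM of Timp1. The Timp2 locus held Cep295nl on the same strand, whose level was not analysed here. The loci of the other 7 genes covered no other annotated gene.

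Genes whose pattern was most like that of a gene of the set were found by the distance over 4 log2 differences (CD34a6 against bulk, HFSC against bulk, CD34+ against CD34neg, dorsomorphin against cyclopamine), among 6706 loci with at least 5 FPKM in a population of every table. The first 2 of these differences share bulk. For Mmp13 the nearest were Prl2c2, a prolactin family gene with 42.2 FPKM in HFSC, 0 in CD34a6 and 0 in bulk, and Prl2c3, at root mean square distances of 0.27 and 0.54. These family members are near copies and their levels are uncertain. For Mmp3 the nearest were Slc16a1, a lactate transporter gene, at 0.18 and Ddit4 at 0.25. For Mmp14 they were Fbxo5 at 0.09 and Phf2 at 0.10, and for Timp2 Golim4 at 0.14 and Alcam, an adhesion molecule gene, at 0.25. Timp3 lay farther from its nearest genes, which were Cp, the ceruloplasmin gene, at 0.52 and Hmga2 at 0.71. For Adamtsl5 the nearest were Pltp at 0.41 and Id3, a target of BMP signalling, at 0.42, and for Adamts1 Lactb2 at 0.29 and Ppp1r15a at 0.31. Mmp9, Mmp10 and Timp1 were under 5 FPKM in the first table and were not compared.

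Markers of other cell types moved with some of these populations. The 6 macrophage and Langerhans cell markers summed to 5.32 FPKM in HFSC, 7.96 FPKM in CD34a6 and 310 FPKM in bulk, and the 4 T cell markers to 0.197, 0.201 and 72.9 FPKM in the same order. The 4 markers of differentiated keratinocytes summed to 168 FPKM in HFSC, 1114 FPKM in CD34a6 and 34209.6 FPKM in bulk. Of these markers Flg went the other way between HFSC, at 58.5 FPKM, and CD34a6, at 9.88 FPKM. The part of macrophages, Langerhans cells, T cells and differentiated keratinocytes in the Mmp9 level of bulk was not tested. Of the 6 neutrophil markers Ly6g and Elane were listed at 0 in all 7 populations, and the sum of the list, 263 FPKM in HFSC, 0.125 FPKM in CD34a6 and 21.6 FPKM in bulk, came nearly all from S100a8 and S100a9, which stressed keratinocytes also make. The 6 fibroblast markers summed to 0.597 FPKM in HFSC, 33.1 FPKM in CD34a6 and 4.35 FPKM in bulk, with Col1a1 at 22.4 FPKM in CD34a6, while Col3a1 and Lum were at 0 there. The part of fibroblast transcripts in the Timp2, Mmp14 and Mmp11 levels of CD34a6 was not tested. In the cultures the fibroblast sum was 0.561 FPKM in CD34+ cells, against 0.308 FPKM in CD34neg cells, and 5.39 FPKM with dorsomorphin, against 2.23 FPKM with cyclopamine. The macrophage list summed to 26.7 FPKM with dorsomorphin, against 27.5 FPKM with cyclopamine, of which Cd68 alone gave 25.6 and 26.1 FPKM, and Cd207 and Adgre1 were listed at 0 with both. The neutrophil list summed to 19.0 FPKM in CD34+ cells, against 75.3 FPKM in CD34neg cells, all from S100a8 and S100a9. The bulge markers summed to 109 FPKM in CD34+ cells, against 13.8 FPKM in CD34neg cells, and to 11.7 FPKM with dorsomorphin, against 34.1 FPKM with cyclopamine. The markers of differentiated keratinocytes summed to 3.41 FPKM in CD34+ cells, against 8.92 FPKM in CD34neg cells. With dorsomorphin they summed to 136 FPKM, against 244 FPKM with cyclopamine. That difference came from Flg alone, at 116 FPKM with dorsomorphin, against 232 FPKM with cyclopamine. Krt1, at 12.4 against 6.52 FPKM, Krt10, at 3.62 against 2.89 FPKM, and Lor, at 3.79 against 3.48 FPKM, were higher with dorsomorphin. The part of these shifts in the levels of Timp3, Adamtsl5, Adamts1 and the Mmp genes in the cultures was not tested.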

How the data were processed

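RNA-seq of mouse keratinocytes was analysed from 3 deposited tables with 1 line per locus and pair of populations. Levels are FPKM per the file headers, 1 value per population, estimated by the authors over 3 libraries. Each table also holds the authors' log2 fold change, p-value and q-value. For 9 libraries the submitters' processing notes name Cuffdiff of Cufflinks 2.2.1, the aligner HISAT 0.1.6, StringTie 1.1.0 and FastQC 0.11.3, while a label names TopHat2. For the other 12 they list, as the authors' tools, DESeq2 1.8.1, featureCounts (Subread 1.4.2), the aligner TopHat2 2.0.13, cutadapt 1.5 and FastQC 0.11.2, although those tables are laid out as Cuffdiff output. It is therefore unsettled which tool gave these p-values. The build was GRCm38 per the same notes.

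Lines repeated with identical values were dropped, up to 66 in a pair of the first table, 1360 in the sorted fractions and 1358 in the inhibitors. Adjusting the p-values by Benjamini-Hochberg then returned the deposited q-values to within 5.29e-07, pooled over the 3 pairs of the first table. The column 3C_HFSC of the sorted fractions was read as CD34+. The plan allowed for tests on values per library and otherwise for the authors' comparison, and the second case applied, so every call is the authors' and no test was made here. Scripts were checked on simulated data. Folds were turned so that the first-named population is on top. Differences are of log2(FPKM + 1), which understates those of low genes. Precision rests on 3 libraries per population at unknown depth. Loci were compared with GENCODE vM21 and starts are counted from 1. The lists' named genes are the called ones with the largest log2 differences, up to 4 per list and comparison (some that the rule selects are not reported here), and Adamts and Adamtsl genes of the set were left out of the lists. The other genes of the Mmp cluster where not called, Syn3 and Araf were named after their values were seen. The genes, lists and tests were chosen with earlier results of these data known. Alternatives were other pseudocounts, TPM (each population rescaled to the same sum), centring, a stricter threshold, adjustment within a pair, a minimum of 1 FPKM and loci without another coding gene. Python 3.11.15, numpy 2.4.6, pandas 2.3.3 and matplotlib 3.10.9 were used.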

Additional observations from a re-analysis of the deposited data

How the results depend on the processing

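Of 50 log2 differences of the 10 genes, centring on the median over all loci left 50 within a 1.5-fold change and TPM 30, with 19 moved and a called one reversed, that of Adamts1 for CD34a6 against bulk (0.27 under TPM, -0.67 as deposited). The uncalled one of Mmp3 for CD34+ against CD34neg also changed sign (0.09 and -0.25). Pseudocounts of 0.1 and 0.01 FPKM moved 11 and 12. At an adjusted p under 0.01, 1 gene of the set was lower for CD34a6 against bulk in place of 3, 1 was higher for dorsomorphin against cyclopamine in place of 2, and of the other system genes 0 were higher and 0 lower for CD34+ against CD34neg, in place of 1 and 1. Without loci that cover another coding gene 0 genes of the set were higher in CD34+ cells. Adjustment within a pair (12 counts), a minimum of 1 FPKM (20), and directions under TPM or centring (10 each, chosen after seeing the data) left every count within 1.5 times. No paired analysis was possible because the tables hold no values per replicate, and no replicate could be left out for the same reason. Depth is unknown, so a value listed at 0 gives no upper limit.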
